A study of Mus musculus with 4 samples.

Results

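The genes for 4 signal transducers and activators of transcription (Stat2, Stat3, Stat4 and Stat6), the Janus kinase gene Jak2 and the 4 interferon receptor genes (Ifnar1, Ifnar2, Ifngr1 and Ifngr2) were followed by ATAC-seq in mouse bone marrow-derived macrophages (BMDMs). ATAC-seq inserts sequencing adapters into accessible DNA with the Tn5 transposase, so that a peak marks open chromatin. The 9 genes were taken by name from the 21755 protein-coding genes of the annotation, and every peak within a gene or 10 kb on either side of it was listed. These windows held 53 of the 71243 regions obtained by merging overlapping peaks of the 4 libraries. The study compared WT BMDMs with H3.3cKO BMDMs, both homozygous for floxed H3f3a and H3f3b (fl/fl), with LysM cre/cre in the cKO and no Cre in WT, with 2 libraries per genotype labelled as biological replicates. Both groups therefore carried the floxed alleles of the histone H3.3 genes, and the groups differed by Cre. Cre is expressed from the Lyz2 (LysM) locus, which is active in macrophages and granulocytes, so deletion takes place during myeloid differentiation and need not be complete in every cell. The cells came from young adult C57BL/6 mice and were grown in medium conditioned by L929 cells, for which the labelled culture protocol gives 6 to 8 days, and no further treatment is labelled. Whether the replicates came from separate mice was not given in the sources used here, and any p then measures the spread between these libraries.

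Type I interferons bind a receptor made of IFNAR1 and IFNAR2, and interferon gamma binds a receptor made of IFNGR1 and IFNGR2. Receptor-bound Janus kinases then phosphorylate STAT proteins, which dimerize and enter the nucleus. STAT2 acts with IRF9 in the complex that binds the interferon-stimulated response element (ISRE), and most other STAT dimers bind the gamma-activated site (GAS). In macrophages, STAT3 carries the signal of IL-10 and IL-6, STAT6 that of IL-4 and IL-13, and STAT4 that of IL-12. JAK2 serves the interferon gamma, IL-12 and GM-CSF receptors.

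The deposited lists held 55742 and 64939 peaks in WT (replicates 1 and 2) and 51955 and 60884 peaks in cKO. Read depths were not analysed here. Promoters of 8 of 8 macrophage markers were open in each library, at percentiles of 50.3 to 99.6. A peak also lay at a start of at most 1 of 4 B cell, 1 of 4 T cell (Lck), 2 of 4 neutrophil and 2 of 4 fibroblast markers per library, at percentiles of 48.2 or less, and of 0 of 4 erythroid markers. The deleted part of H3f3a, exon 2, lay in a region that both WT lists contained (percentiles 5.02 and 19.1) and both cKO lists lacked. A region over H3f3b was called in all 4 libraries, at percentiles 94.2 and 95.5 in WT against 87.0 and 81.4 in cKO. The percentile is the rank of a peak's area within its own list, from 0 to 100, where area is the sum of the caller's significance signal along the peak. It was used because areas themselves grow with the depth of a library. A region with several peaks took the percentile of the largest.

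Sequences that the results turn on are given first. Each of the first 7 is the 201 bases around the summit of the highest-ranked peak in the region, from the RefSeq assembly GRCm38.p6 (mm10). They are the 4 regions lost in cKO and the 3 regions called in all libraries whose percentile differed most between the genotypes. Capitals mark a match to the GAS letters TTCNNNGAA, which were searched on both strands.
Jak2 intron 1, lost in cKO (chr19:29252938-29253138, + strand): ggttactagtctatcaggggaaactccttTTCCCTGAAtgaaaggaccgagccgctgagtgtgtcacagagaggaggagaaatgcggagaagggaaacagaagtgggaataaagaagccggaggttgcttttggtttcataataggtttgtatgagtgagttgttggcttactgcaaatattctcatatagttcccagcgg
Ifnar2 intron 3, lost in cKO (chr16:91385718-91385918, + strand): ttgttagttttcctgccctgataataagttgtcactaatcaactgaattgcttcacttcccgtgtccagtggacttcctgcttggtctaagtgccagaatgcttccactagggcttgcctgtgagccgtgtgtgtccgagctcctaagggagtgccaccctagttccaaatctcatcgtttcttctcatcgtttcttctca
Ifnar2 intron 4, lost in cKO (chr16:91386950-91387150, + strand): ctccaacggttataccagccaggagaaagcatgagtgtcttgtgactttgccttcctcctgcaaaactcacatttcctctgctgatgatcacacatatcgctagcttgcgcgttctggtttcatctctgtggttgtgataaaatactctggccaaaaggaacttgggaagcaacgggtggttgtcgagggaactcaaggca
Ifngr1 upstream, lost in cKO (chr10:19583087-19583287, + strand): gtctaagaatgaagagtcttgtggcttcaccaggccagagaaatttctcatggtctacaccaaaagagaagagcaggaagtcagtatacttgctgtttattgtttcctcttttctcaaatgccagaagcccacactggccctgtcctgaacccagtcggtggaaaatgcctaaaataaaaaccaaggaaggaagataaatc
Nab2 intron in the Stat6 window, lower in cKO (chr10:127662145-127662345, + strand): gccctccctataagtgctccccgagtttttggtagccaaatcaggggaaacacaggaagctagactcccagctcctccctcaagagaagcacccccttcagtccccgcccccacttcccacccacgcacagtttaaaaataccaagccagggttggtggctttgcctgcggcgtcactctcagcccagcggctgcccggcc
Ifngr2 upstream, lower in cKO (chr16:91538171-91538371, + strand): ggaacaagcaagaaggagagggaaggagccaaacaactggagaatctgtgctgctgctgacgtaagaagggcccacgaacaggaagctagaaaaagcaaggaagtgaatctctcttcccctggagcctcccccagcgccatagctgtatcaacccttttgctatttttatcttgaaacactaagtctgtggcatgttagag
Il10rb intron in the Ifnar2 window, higher in cKO (chr16:91413185-91413385, + strand): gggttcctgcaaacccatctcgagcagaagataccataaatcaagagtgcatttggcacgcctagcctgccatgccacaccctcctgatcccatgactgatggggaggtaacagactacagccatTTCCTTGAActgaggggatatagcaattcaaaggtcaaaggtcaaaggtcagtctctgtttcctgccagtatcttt

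A GAS match lay in 1 of the 4 lost regions, that of Jak2, and in the region of the Il10rb intron. Over all 53 regions, 5 held a GAS match, against 6.10% of all 71243 regions in windows of the same length. The ISRE was searched as a pair of GAAA half-sites separated by 2 bases, and 2 of the 53 regions held it (3.90% of all regions). Letters of the macrophage factor PU.1 (GAGGAAGT) were in 3 regions, of AP-1 (TGANTCA) in 6 and of C/EBP (TTGCNNAA) in 6, against 11%, 16.7% and 12.3% of all regions. None of the 4 lost regions held the ISRE, PU.1, AP-1 or C/EBP letters. These are matches of letters within the window and say nothing of binding.

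Promoter sequences of 300 bases (250 before to 50 after the start) were available from RefSeq for all 9 genes, with 10 sequences because Stat4 had 2 starts. The GAS letters were found in those of Ifnar1 and Ifnar2 (8.30% of all 32851 promoters held them) and the ISRE half-site pair in those of Stat2 and the second start of Stat4 (3.44% of all). PU.1, AP-1 and C/EBP letters were in 0 of the 10, against 3.20%, 7.81% and 10.8% of all promoters. The promoters of the 2 receptor chains with a GAS match and of Stat2, the STAT that works through the ISRE, are shown with the match in capitals.
Ifnar1 promoter (chr16:91484965-91485264, + strand): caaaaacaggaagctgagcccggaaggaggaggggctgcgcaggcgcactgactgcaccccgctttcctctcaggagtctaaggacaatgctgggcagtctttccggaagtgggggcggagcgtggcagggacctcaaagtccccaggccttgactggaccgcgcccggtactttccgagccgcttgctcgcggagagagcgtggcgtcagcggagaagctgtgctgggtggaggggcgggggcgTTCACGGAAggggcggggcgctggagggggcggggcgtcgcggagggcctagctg
Ifnar2 promoter (chr16:91372533-91372832, + strand): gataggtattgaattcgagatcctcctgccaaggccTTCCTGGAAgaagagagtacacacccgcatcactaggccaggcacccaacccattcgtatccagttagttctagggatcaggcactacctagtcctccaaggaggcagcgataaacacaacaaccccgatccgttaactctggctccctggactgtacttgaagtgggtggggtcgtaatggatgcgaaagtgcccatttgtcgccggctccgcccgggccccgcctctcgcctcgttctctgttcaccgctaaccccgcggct
Stat2 promoter (chr10:128270248-128270547, + strand): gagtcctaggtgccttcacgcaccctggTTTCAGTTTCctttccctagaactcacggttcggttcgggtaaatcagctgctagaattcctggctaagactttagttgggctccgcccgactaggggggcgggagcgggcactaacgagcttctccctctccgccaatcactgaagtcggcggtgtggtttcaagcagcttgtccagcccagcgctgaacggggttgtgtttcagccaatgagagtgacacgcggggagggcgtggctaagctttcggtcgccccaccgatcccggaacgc

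Regions over these genes that were called in all libraries tended to rank lower in cKO, while the share of lost regions was near the background. Of the 53 regions, 30 were called in all 4 libraries, against 44820 of the 71243 regions genome-wide. Of the rest, 0 were gained, meaning present in both cKO lists but absent from the WT lists, and 4 were lost, meaning the reverse. The other 19 followed neither pattern. Among all regions 3.72% were gained and 7.25% were lost, so the 7.55% lost here was near the background. Regions were lost at 3 of the 9 genes (Ifnar2, Ifngr1 and Jak2), against 16.4% of protein-coding genes with a lost region in such a window, and none of the 9 had a gained region, against 8.34%. The 9 windows held a median of 5 regions and those of all protein-coding genes a median of 2, which gives each window here more chances of a lost region. The number of lost regions depended on single libraries. It was 9 without WT replicate 1 and 10 without cKO replicate 2, and 7 when each list was shortened to its top 51955 peaks. When WT replicate 2 was left out 2 regions counted as gained, and 3 did when cKO replicate 1 was. With a library left out, fewer lists have to agree for a region to count as lost or gained. The shares of all regions under these settings are not given here, so the counts do not single out these genes.

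Among the 30 regions called in all libraries, 19 (63.3%) had both cKO percentiles below both WT percentiles, compared with 35.1% of the 44820 such regions genome-wide. Both cKO percentiles lay above both WT percentiles in 2 (6.67%), compared with 22.2% genome-wide, and the genotypes overlapped in the other 9. The difference, cKO minus WT, was negative in 24 of the 30 regions (80%) and in 58.1% of all regions, with medians of -3.29 and -1.10 percentile points. Regions of one window are neighbours on the chromosome and are not independent of each other. The windows of Ifnar1, Ifnar2 and Ifngr2 also lie close together on chromosome 16, with 2 of 2, 4 of 7 and 4 of 4 regions lower. Elsewhere, lower regions were 2 of 2 at Stat2, 2 of 2 at Ifngr1 and 4 of 4 at Stat6. They were 1 of 4 at Stat4, 0 of 2 at Stat3 and 0 of 3 at Jak2, so the share was uneven over the genes. With lists of equal length, the genome-wide shares of lower and higher regions became 35.7% and 36.8%, with a median difference of 0.0885 points. There, 20 of 29 member regions (69.0%) were lower and 4 (13.8%) higher, and their median difference was -3.22 points. The lower ranks over these genes thus stood beside a balanced genome-wide background in that setting. Within the genes alone, without the 10 kb on either side, 10 of 17 regions were lower and 1 was higher.

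**Figure D1:**
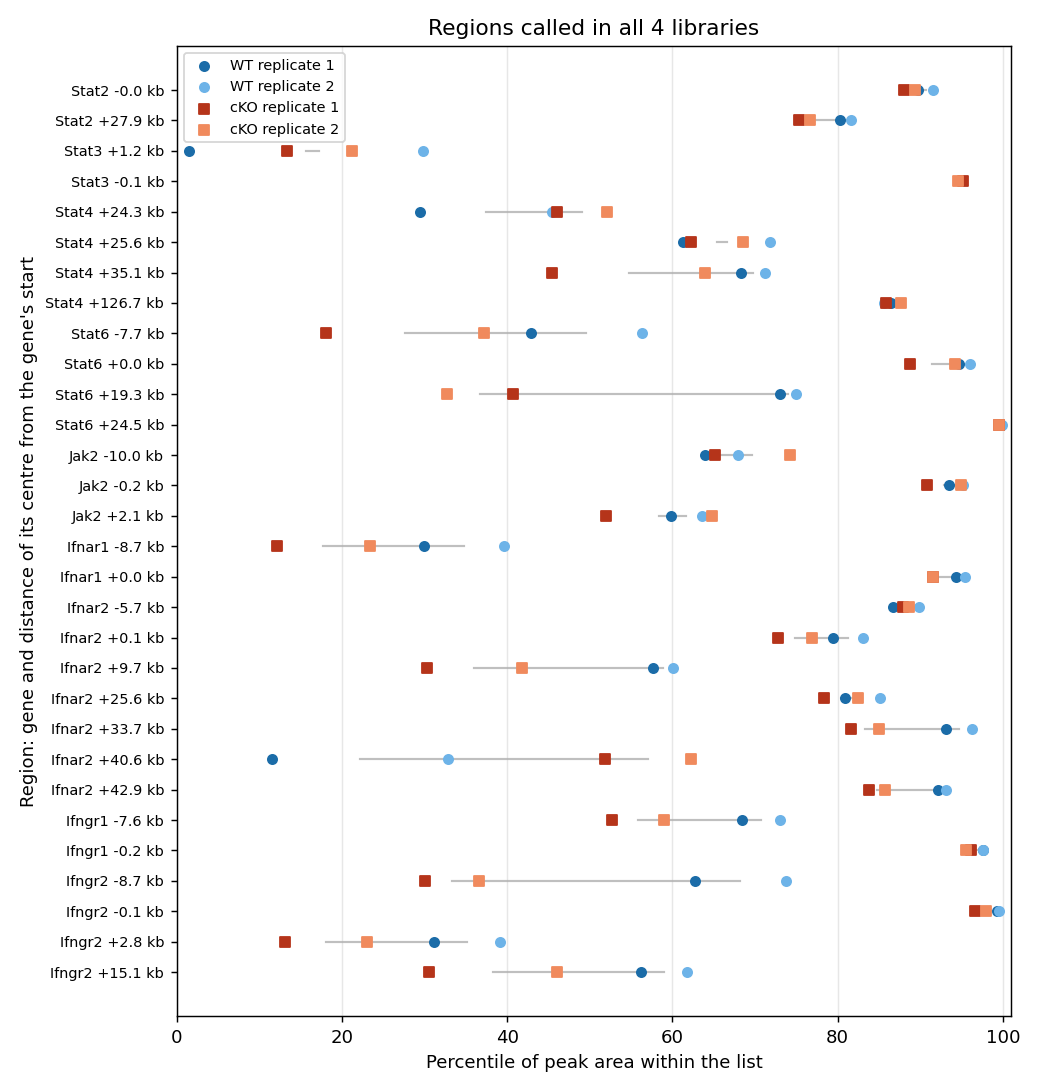
Percentile of peak area within its list (horizontal axis, 0 to 100) for the 30 regions called in all 4 libraries, named by gene and by the distance in kb of the region's centre from the gene's start. Circles are WT and squares cKO, each point is 1 library and the grey line joins the genotype means. Both squares lie left of both circles in 19 rows and right of them in 2, and the largest gaps are at Stat6 +19.3 kb, Ifngr2 -8.7 kb and Ifnar2 +40.6 kb, the last in the opposite direction.

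No region passed the test across all 44820 regions (limma on probit-transformed percentiles, adjusted p below 0.05), genome-wide (0%) or among the members. Adjusted p-values of the 30 regions ran from 0.0864 to 0.986 in that limma fit, and 0.0864 was also the smallest of all regions. The limma unadjusted p of that member region was 0.000923. Every region with a lower unadjusted p shares the same smallest adjusted value, so it does not make this the first region genome-wide. At an unadjusted p below 0.05 there were 12 member regions, 11 lower and 1 higher in cKO, against 14.4% lower and 7.96% higher of all regions. With lists of equal length, limma called 11 member regions lower and 2 higher, against 11.8% and 12.1% of 41715 regions. Of these 11 lower regions, 9 lay in the windows of interferon receptor genes. Without cKO replicate 2, limma called 2 of 31 member regions lower (at Stat6 and Ifngr2), near the 7.02% of 45327 regions genome-wide, and with any other library left out it called 0. The calls therefore depend on how the lists are scaled, on single libraries and on the variance model of the fit. With an intensity trend in that model, limma called 13 member regions lower and 1 higher, and 5866 and 3035 of 44820 regions genome-wide. Below, the adjusted p with lists of equal length is also given for regions where it changed the call. For a single region the exact permutation test over 6 assignments of the labels could not give a p below 0.33.

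The windows of the 4 receptor genes held 25 regions. Peaks of every library fell in 15, and 12 of these were lower in both cKO libraries, 1 was higher and 2 overlapped, with a median difference of -7.93 points. In addition 3 regions were lost and 7 were called in other combinations. The 4 STAT genes had 24 regions, with 12 called throughout, 7 lower, 1 higher and 4 overlapping and a median difference of -1.56 points. Genome-wide, 35.1% of such regions were lower and 22.2% higher. None of the STAT regions was lost in the full lists. With lists of equal length, 2 STAT regions (at Stat3 and Stat4), 4 receptor regions and 1 Jak2 region were lost. The difference between these gene groups was not tested.

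Ifnar1 encodes a chain of the type I interferon receptor. Its promoter region (chr16:91484736-91485751) had percentiles of 94.3 and 95.4 in WT against 91.6 and 91.5 in cKO, a difference of -3.28 points, with both cKO libraries below both WT libraries. The exact permutation p was 0.33, the smallest possible, and the adjusted p of limma was 0.247. A second region 8.7 kb upstream, in an intron of Gm49626 (chr16:91476427-91476692), stood at 29.9 and 39.7 in WT against 12.1 and 23.4 in cKO. It did not overlap between genotypes, with an adjusted p of 0.216 in the limma fit and 0.0191 with lists of equal length. A further, intergenic region (chr16:91478146-91478506) had percentiles of 48.7 and 53.3 in WT, was not called in cKO replicate 1 and stood at 11.7 in cKO replicate 2. It was picked out after its values were seen.

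Ifnar2 encodes the other chain. Its promoter region (chr16:91372403-91373454) had percentiles of 79.4 and 83.1 in WT against 72.7 and 76.9 in cKO, a difference of -6.41 points that was the largest among the promoters of these genes (exact permutation p = 0.33, limma adjusted p = 0.341). This promoter also ranked lowest of the 8 with a region in every library. In intron 1 a region (chr16:91382270-91382750) stood at 57.6 and 60.1 in WT against 30.3 and 41.8 in cKO. That difference of -22.8 points had an adjusted p of 0.139 with limma and of 0.0195 with lists of equal length. The gene carried 2 of the 4 lost regions. One lay in intron 3 (chr16:91385642-91385912), at 27.3 and 45.3 in WT, and one in intron 4 (chr16:91386860-91387179), at 8.35 and 14.0 in WT. The first was a mid-ranked peak and the second a low-ranked one in the lists that held them. In intron 7 a region (chr16:91397860-91398862) stood at 80.9 and 85.1 in WT against 78.4 and 82.5 in cKO, with overlap, and so did one 5.7 kb upstream of the gene (chr16:91366603-91367630), at 86.7 and 89.9 against 87.9 and 88.6.

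The 10 kb beyond Ifnar2 reach into Il10rb, which encodes a chain of the IL-10 receptor, and the region with the largest positive difference of all 30 lay there. In an intron of Il10rb (chr16:91413022-91413652) percentiles were 11.5 and 32.8 in WT against 51.8 and 62.2 in cKO. This difference of 34.9 points had an adjusted p of 0.164 with limma and of 0.0306 with lists of equal length. It is the region with a GAS match printed above. Its neighbours on either side had lower percentiles in cKO. The region over the start of Il10rb (chr16:91405657-91407280) stood at 93.1 and 96.2 in WT against 81.6 and 85.0 in cKO, and another intronic region (chr16:91415195-91416189) at 92.2 and 93.1 in WT against 83.7 and 85.7 in cKO. Their differences were -11.4 and -7.93 points, with limma adjusted p-values of 0.125 and 0.137, and of 0.0258 and 0.0222 with lists of equal length. Along this stretch, then, 1 region ranked higher in cKO between 2 that ranked lower.

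Ifngr1 encodes the chain of the interferon gamma receptor that binds the ligand. Its promoter region (chr10:19591115-19592347) had percentiles of 97.5 and 97.6 in WT against 96.1 and 95.5 in cKO, a difference of -1.77 points (exact permutation p = 0.33, limma adjusted p = 0.249). When peaks were ranked by the height of the summit in place of the area, the difference was 0.41 points. An upstream region (chr10:19584072-19584538) stood at 68.4 and 73.0 in WT against 52.7 and 59.0 in cKO, with a limma adjusted p of 0.173, and of 0.0254 with lists of equal length. About 1 kb further upstream lay the lost region (chr10:19583042-19583282), at 10.0 and 26.6 in WT. The other 3 regions of the window were called in WT replicate 2 alone.

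Ifngr2 encodes the chain needed for signalling by the same receptor, and all 4 of its regions called in every library were lower in cKO. The promoter region (chr16:91545510-91548343) was among the highest-ranked of the series, at 99.2 and 99.6 in WT against 96.6 and 97.9 in cKO, and it was 1 peak in each WT library and 2 peaks in each cKO library, of which the larger was ranked. With the areas of the pieces summed, the difference went from -2.16 to -1.09 points, with a limma adjusted p of 0.231. For the larger piece the limma adjusted p was 0.131, and 0.0281 with lists of equal length, at an exact permutation p of 0.33. An intergenic region 8.7 kb upstream (chr16:91537934-91538896) stood at 62.7 and 73.7 in WT against 30.1 and 36.6 in cKO. Its difference of -34.9 points had an adjusted p of 0.103 with limma, 0.0165 with lists of equal length, and 0.0409 to 0.240 with 1 library left out, the lowest without cKO replicate 2. In intron 1 a region (chr16:91549709-91550001) stood at 31.1 and 39.1 in WT against 13.1 and 23.0 in cKO, and in intron 6 another (chr16:91561907-91562371) stood at 56.2 and 61.7 in WT against 30.6 and 46.0 in cKO. Their adjusted p-values were 0.190 and 0.193 with limma, and 0.0283 and 0.0300 with lists of equal length. The difference in intron 6 was -20.7 points, and -12.9 without cKO replicate 1. None of the 4 regions overlapped between the genotypes.

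Ifnar2, Il10rb, Ifnar1 and Ifngr2 lie beside each other on chromosome 16, so their windows were also read as 1 stretch of 213 kb (chr16:91362783-91575623), including the parts between windows. This span was chosen after the values were seen. It held 28 regions. All libraries had a peak in 21, 0 were gained, 2 were lost and 5 were called in other combinations. Of the 21, 18 (85.7%) had both cKO percentiles below both WT percentiles, 1 was higher and 2 overlapped, beside 35.1% lower and 22.2% higher genome-wide. The 9 regions between the windows, which the gene rule had not taken in, included 8 called in all libraries, and 8 of 8 were lower in cKO. The largest difference among them was at chr16:91438037-91438516, at 58.2 and 65.7 in WT against 27.7 and 17.5 in cKO. The lower regions lay both at promoters and between genes, the higher one was the Il10rb intron, and the 2 that overlapped were in the Ifnar2 window. Because the span was picked for its values, its share is a description.

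**Figure D2:**
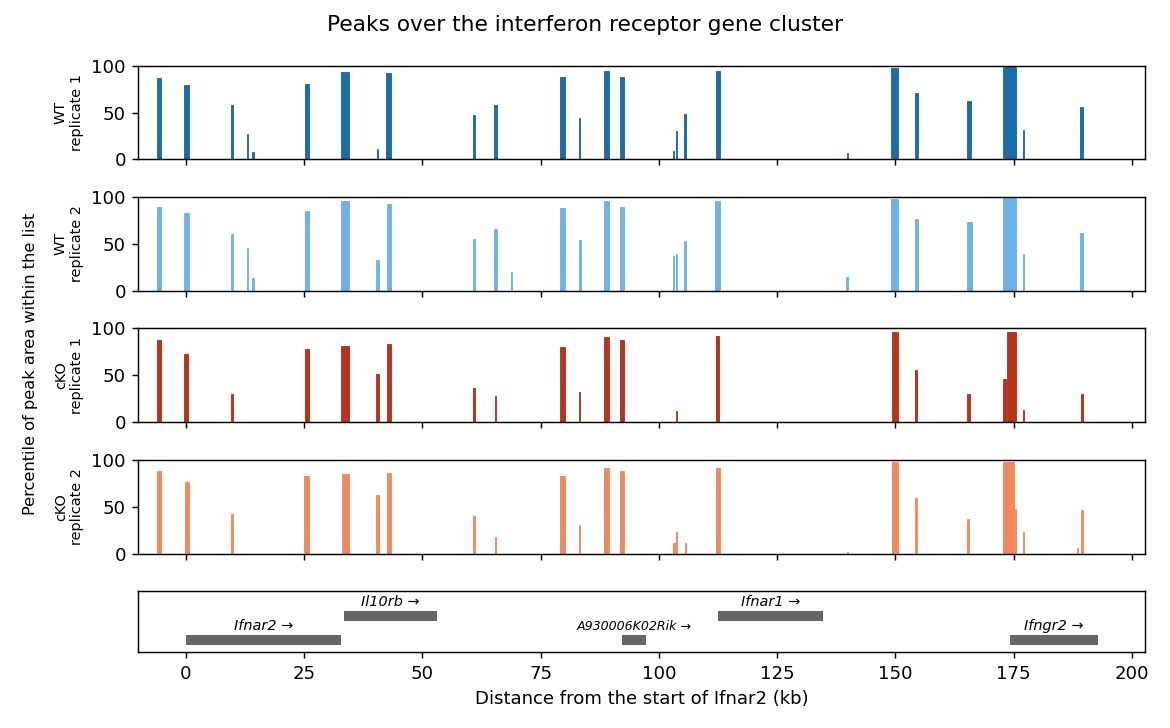
Peaks of each library over the receptor genes on chromosome 16, by distance in kb from the start of Ifnar2 (horizontal axis), with bar height giving the percentile of peak area within its list and the lower track giving genes, not all of them shown, with arrows for the direction of transcription. Most bars are shorter in the 2 cKO libraries (red and orange) than in the 2 WT libraries (blues), the bars near +13 and +14 kb are missing from both, and the bar near +41 kb is taller in both.

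Jak2, the kinase shared by the interferon gamma and several cytokine receptors, had 4 regions. Its promoter region (chr19:29250969-29252308) had percentiles of 93.5 and 95.2 in WT against 90.8 and 94.9 in cKO, with overlap (difference -1.45 points, exact permutation p = 0.667, limma adjusted p = 0.713). A region in intron 1 (chr19:29253639-29254234) stood at 59.8 and 63.6 in WT against 52.0 and 64.8 in cKO, and one at the upstream edge of the window (chr19:29241518-29242043) at 64.0 and 67.9 in WT against 65.1 and 74.2 in cKO. In both regions the genotypes overlapped. The fourth region (chr19:29252901-29253150), between the promoter region and the intron 1 region, was the lost one, at 24.4 and 24.6 in WT. It holds the GAS match printed above. At Jak2, then, the only difference in calls was this low-ranked intronic region.

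Stat2, the STAT of the type I interferon response, had 2 regions, both called in every library. Its promoter region (chr10:128270156-128270919) stood at 89.7 and 91.6 in WT against 88.0 and 89.4 in cKO, a difference of -1.92 points (exact permutation p = 0.33, limma adjusted p = 0.581). The groups did not overlap, but the gap between the lower WT library and the higher cKO library was small beside the spread within each pair. The other region was the promoter of Il23a (chr10:128298072-128298774), which encodes a subunit of IL-23, at 80.3 and 81.6 in WT against 75.3 and 76.6 in cKO. Its limma adjusted p was 0.372, and 0.215 with lists of equal length. The Stat2 promoter carries the ISRE half-site pair shown above. By area its difference was smaller in points than those of Ifnar1 and Ifnar2. By summit height it was the larger, at -3.56 points against -1.97 at Ifnar1 and -3.36 at Ifnar2. No test was made between genes.

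Stat3, the STAT of IL-10 and IL-6, had the smallest promoter difference of the 8 genes with a promoter region. Its region (chr11:100939042-100940154) stood at 94.8 and 94.9 in WT against 95.2 and 94.6 in cKO, a difference of 0.0441 points (exact permutation p = 1, limma adjusted p = 0.982). A weak region in intron 1 (chr11:100938228-100938461) stood at 1.46 and 29.9 in WT against 13.3 and 21.2 in cKO, so that the 2 WT libraries differed more from each other than the genotypes did. The other 3 regions of Stat3 were intronic and were called in 2 or 3 libraries each. One of them (chr11:100927431-100927670) stood at 32.6 and 29.3 in WT against 2.76 in cKO replicate 2 and was absent from cKO replicate 1.

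Stat4 encodes the IL-12 responsive STAT, and it was the single gene of the 9 without a region at a start of the basic annotation. A start without a peak can still hold signal below the caller's limit. In the full annotation 1 start lay beside a weak region (chr1:52008507-52008868), at 8.55 and 29.2 in WT, absent from cKO replicate 1 and at 6.54 in cKO replicate 2. The regions called throughout were in introns or past the end of the gene. One in intron 2 (chr1:52011287-52011594) was the second of the 2 regions higher in cKO, at 29.4 and 45.5 in WT against 46.1 and 52.1 in cKO. The difference was 11.7 points, but 3.62 without WT replicate 1 and 19.7 without WT replicate 2, and the highest WT and the lowest cKO library were close to each other. Its limma adjusted p was 0.384, and 0.0458 with lists of equal length. In intron 3 a region (chr1:52012362-52013137) stood at 61.3 and 71.9 in WT against 62.2 and 68.5 in cKO, with overlap. In intron 4 a region (chr1:52022019-52022545) stood at 68.3 and 71.2 in WT against 45.5 and 64.0 in cKO, a difference of -15.0 points with a limma adjusted p of 0.301. It was -5.78 points without cKO replicate 1 and -24.3 points without cKO replicate 2. The last region called in all libraries (chr1:52113429-52114311), past the end of the gene at the starts of Gm28177 and Gm31812, stood at 86.5 and 85.6 in WT against 85.8 and 87.7 in cKO. Stat4 thus had 1 region higher, 1 lower and 2 overlapping. The 5 regions of the window outside this set were called in 1 to 3 libraries, with percentiles of at most 29.2.

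Stat6, the STAT of IL-4 and IL-13, had 4 regions called in every library, and all 4 were lower in cKO. The promoter region (chr10:127641680-127644314) stood at 94.6 and 96.0 in WT against 88.7 and 94.1 in cKO, a difference of -3.89 points (exact permutation p = 0.33, limma adjusted p = 0.355). Its higher cKO library was nearer to WT than to the other cKO library, and the difference was -1.19 points without cKO replicate 1 and -6.60 without cKO replicate 2. The promoter region held 2 peaks in each list but that of cKO replicate 2, which had 1, and the largest was ranked. With the areas of the pieces summed, the difference was -3.61 points, with a limma adjusted p of 0.167. An intergenic region 7.7 kb upstream (chr10:127635057-127635435) stood at 42.8 and 56.4 in WT against 18.1 and 37.1 in cKO, with a limma adjusted p of 0.250, and of 0.0501 with lists of equal length. The difference there was -22.0 points, and -12.5 without cKO replicate 1. A region in intron 4 (chr10:127650000-127650435), at 48.6 and 58.7 in WT, was absent from cKO replicate 1 and stood at 15.6 in cKO replicate 2. It was picked out after its values were seen.

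The largest difference over all 30 regions lay 19.3 kb downstream of the Stat6 start, in an intron of the neighbouring gene Nab2 (chr10:127661921-127662699), which encodes a corepressor of EGR transcription factors. Percentiles were 73.1 and 74.9 in WT against 40.7 and 32.7 in cKO, a difference of -37.3 points with SDs of 1.31 and 5.61 (n = 2 each). On the probit scale the difference was -0.98 ± 0.122 (SE), with an adjusted p of 0.0864 in the limma fit, 0.0410 with lists of equal length, and 0.0389 to 0.244 with 1 library left out, the lowest without cKO replicate 2. The shared start of Nab2 and Nemp1 (chr10:127666248-127668673) ranked near the top in every library, at 99.8 and 99.8 in WT against 99.5 and 99.5 in cKO. That small step of -0.300 points had an adjusted p of 0.172, and of 0.0329 with lists of equal length in limma.

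**Figure D3:**
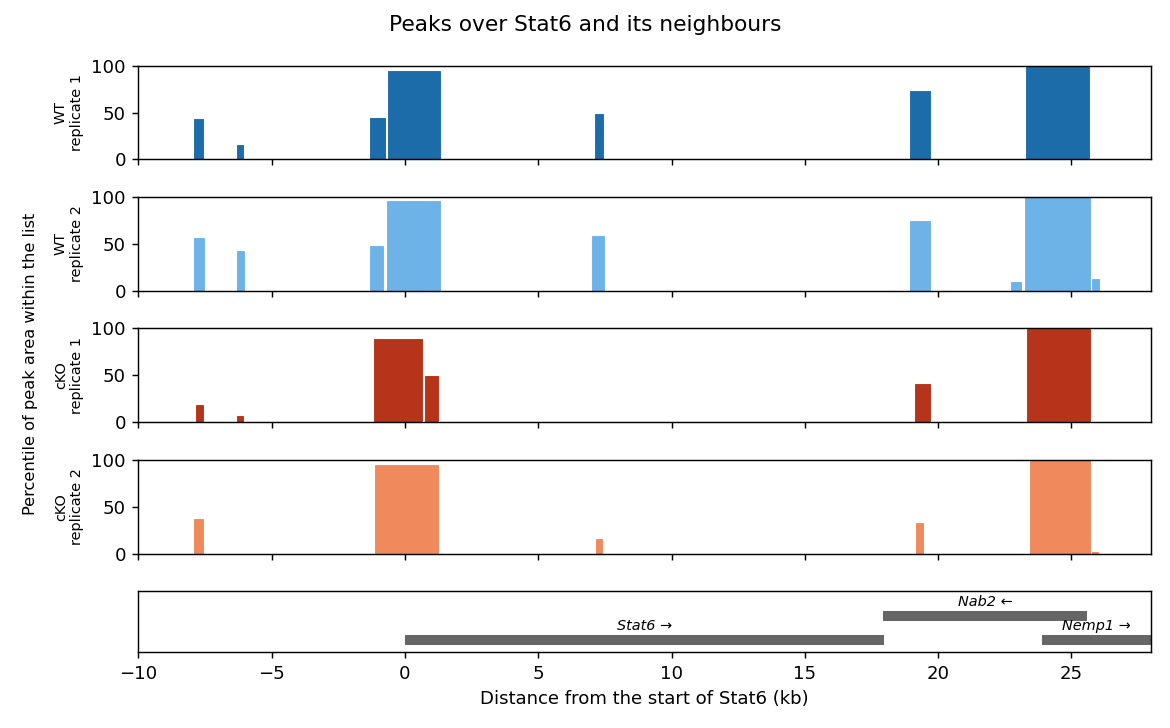
Peaks of each library over Stat6 and its neighbours, by distance in kb from the start of Stat6 (horizontal axis), with bar height giving the percentile of peak area within its list and the lower track giving genes with arrows for the direction of transcription. The bar at +19.3 kb, in Nab2, is near 74 in both WT libraries and at 40.7 and 32.7 in cKO, while the bars over the Stat6 start and over the Nab2 and Nemp1 start stay tall in all 4 libraries.

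Promoter regions of these genes differed by fewer points than their other regions, although a rank near the top of a list has little room to differ. A promoter region at a start of the basic annotation was found in every library for 8 of the 9 genes, and not for Stat4. By area, the difference was negative at 7 of the 8, the genotypes did not overlap at 6, each lower in cKO, and the median difference was -2.04 points. Over all 9057 shared promoter regions, 33.1% were lower and 21.8% higher, with a median of -0.415 points. In the order of mean WT percentile the promoters were Ifngr2 (99.4), Ifngr1 (97.6), Stat6 (95.3), Stat3 (94.8), Ifnar1 (94.8), Jak2 (94.3), Stat2 (90.6) and Ifnar2 (81.2). Stat6, Stat3, Ifnar1 and Jak2 overlapped within the spread of the WT libraries, and the other neighbours in that order did not. Area grows with the width of a peak, and by the height of the summit the order was different. There the wide Ifngr2 region stood at 85.5 and 90.4 in WT and the narrower Ifnar1 region at 96.8 and 97.9. The separation of the genotypes at promoters also depended on the measure. By summit height only the Stat2 and Ifnar1 promoters had both cKO libraries below both WT libraries. The genotypes overlapped by height at Ifnar2, Ifngr1, Ifngr2 and Stat6, which were apart by area, and at Stat3 and Jak2. The 19 shared regions with their centre outside the promoters of any gene had a median difference of -11.4 points, with 11 lower and 2 higher. Over all shared regions placed by this rule, 35.6% were lower and 22.4% higher, with a median of -1.58 points. By the same rule the 19 include the region over the start of Il10rb, whose own difference of -11.4 points is the median.

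**Figure D4:**
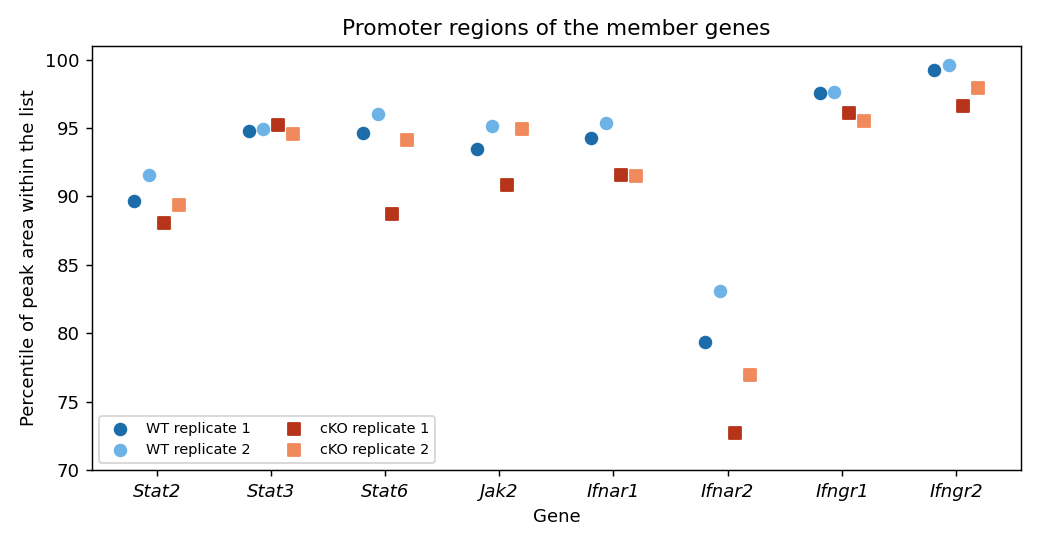
Percentile of peak area within its list (vertical axis, drawn from 70 upward) at the promoter region of the 8 genes that have one, with 1 point per library, circles for WT and squares for cKO. The squares lie below the circles at 6 genes, the cKO libraries straddle WT at Stat3 and 1 cKO library reaches the WT values at Jak2, and Ifnar2 lies lowest.

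By place, 12 of the 53 regions (22.6%) had their centre in a promoter of some gene, against 15.0% of all regions, 30 (56.6%) in an intron against 46.3%, 10 (18.9%) between genes against 31.9%, and 1 (1.89%) in an exon against 6.79%. The median width was 399 bp, and 444 bp over all regions. Counted per library, the windows held 42 and 51 peaks in WT against 35 and 44 in cKO, and 7.53 and 7.85 against 6.74 and 7.23 per 10000 peaks of the list. The number itself overlapped between genotypes (exact permutation p = 0.667), whereas the number per 10000 peaks did not (exact permutation p = 0.33). Peaks covered 28952 and 33150 bp of the windows in WT against 25133 and 27393 bp in cKO, without overlap (exact permutation p = 0.33). These lengths were not scaled. The total covered by each list is not given here, so they do not single out these windows. The per-gene numbers differed in direction. Ifngr1 had 3 and 6 peaks in WT against 2 and 2 in cKO, while Ifngr2, whose promoter peak was in 2 pieces in cKO, had 4 and 4 in WT against 5 and 6 in cKO.

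**Figure D5:**
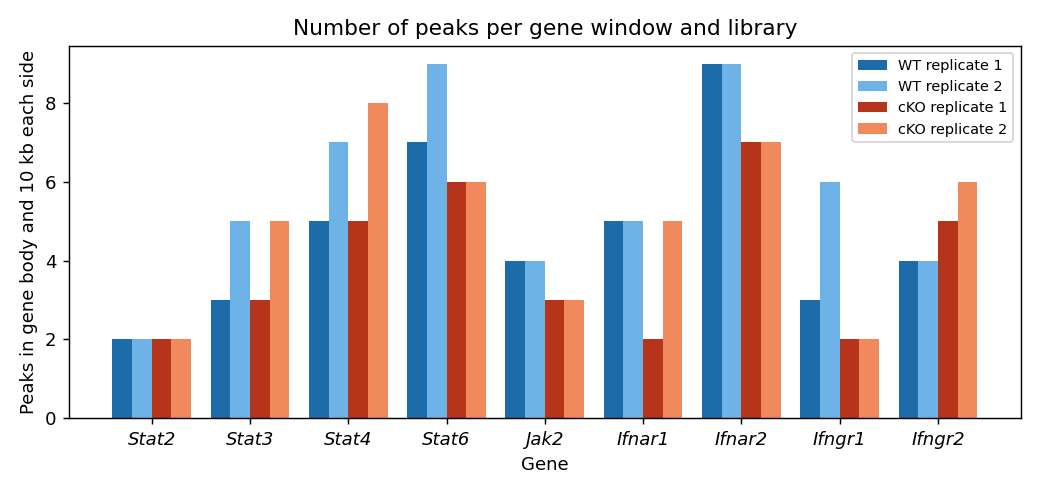
Number of peaks within each gene and 10 kb on either side (vertical axis), with 1 bar per library. Both cKO bars (red and orange) are below both WT bars (blues) at Stat6, Jak2, Ifnar2 and Ifngr1 and above them at Ifngr2, and Stat2 has 2 peaks in every library.

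The 19 regions called in other combinations were mostly low in rank. The highest, at Ifnar1 and Stat6, are described above. A further Stat6 region (chr10:127636672-127636949) stood at 15.0 and 42.3 in WT and 7.02 in cKO replicate 1. A further Ifnar1 region (chr16:91475780-91476103) stood at 8.55 and 36.8 in WT and 11.5 in cKO replicate 2. Neither was called in the other cKO library. For the 19 and the lost regions together, the highest percentile in any library had a median of 15.2, against 78.3 for the 30 regions called throughout. Of the 19, 16 were not called in cKO replicate 1, the shortest list, and 16 were called in WT replicate 2, the longest. Only WT replicate 2 held 5 of them and only cKO replicate 2 held 3, while 6 were called in all libraries but cKO replicate 1. The part of list length in the number of calls was not tested.

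The rest of the JAK-STAT pathway was read from a list of 27 other genes (cytokine receptors, the kinases Jak1, Jak3 and Tyk2, Stat5a, Stat5b, Irf9 and inhibitors of the pathway), whose windows held 171 regions beyond those above. Of these, 6 (3.51%) were gained and 15 (8.77%) lost, near the shares of all regions. Among 100 regions called in all libraries, 43 were lower in cKO, 14 were higher and 43 overlapped, beside 35.1% lower and 22.2% higher genome-wide, with a median difference of -2.74 points. limma called 0 of them, as it did genome-wide. A lost region was found at 11 of the 27 genes, among them Il10ra with 3 and Il6st and Ptpn11 with 2 each, and a gained region at 5 (Stat5b, Jak1, Usp18, Cish and Il4ra, with 2 at Il4ra). These shares of 40.7% and 18.5% stand beside 16.4% and 8.34% of protein-coding genes, but the windows held a median of 6 regions against 2. Promoters were called in every library for 24 of the genes, of which that of Il10rb is described above. Of the other 23, 11 (47.8%) were lower and 3 (13.0%) higher in cKO, beside 33.1% and 21.8% of all shared promoter regions. The 3 that were higher were Jak3, which pairs with the common gamma chain, and the inhibitors Socs1 and Pias4. The Socs1 promoter stood at 90.3 and 89.4 in WT against 96.1 and 97.2 in cKO, the Jak3 promoter at 49.4 and 54.8 in WT against 60.7 and 63.2 in cKO, and the Pias4 promoter at 77.5 and 80.4 in WT against 83.0 and 84.0 in cKO. The promoter of Irf9, the partner of STAT2, overlapped between genotypes, at 91.0 and 91.6 in WT against 90.1 and 92.4 in cKO. None of the 8 member promoters was higher in cKO, and a difference between these lists was not tested.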

How the data were processed

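ATAC-seq libraries of 2 WT and 2 H3.3cKO BMDM cultures were analysed. The authors aligned paired reads to mm10 with Bowtie2 (version 2.5.1, per the labels) and called peaks per library with Genrich, and no pooled list was used. In the deposited lists the main value was the peak signal (area under the significance curve, lowest value 200). The deposited −log10 p-value at the summit served as an alternative, and the deposited score was not used. Read filters, duplicates and a Tn5 shift were not stated. The study tested read counts, so a fit over ranks stood in here.

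Groups and replicate numbers came from the sample titles. Peaks overlapping by 1 bp were merged over the 4 lists, and a region was called in a library with a peak in it. Genes and markers came from GENCODE vM21, and classes and promoters from its basic set (promoter: 1000 bp upstream to 100 bp downstream of a start), intron numbers from 1 annotated transcript per gene, and sequences from RefSeq GRCm38.p6 (pysam 0.24.0). Percentiles of regions called in all libraries were probit-transformed and fitted with limma 3.58.1 (R 4.3.3) without a block, with Benjamini-Hochberg adjustment over all such regions, after a test on simulated data. Equal lists held the top 51955 peaks. Permutation tests were exact and two-sided. The genes, lists and tests were chosen with earlier results of these data known. Each gene is given by its promoter region, its gained and lost regions and its regions called in all libraries. Without read depth, no counting interval could be given.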

Additional observations from a re-analysis of the deposited data

How the results depend on the processing

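Read depth is unknown, and a site just under the caller's limit is missing from a list, so absence of a peak does not show closed chromatin. With 2 libraries per genotype, calls rested on the scaling of the ranks, on the variance model of the fit and on single libraries.

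No region was lower or higher by limma's adjusted p without WT replicate 1 or 2, with the replicate block, with peaks above the median area, with cover of at least 50% or with summed areas. Genome-wide, limma called 4907 regions lower and 5028 higher with lists of equal length, 6964 and 6972 on log2 area after quantile normalization, 5866 and 3035 with an intensity trend, and 245 and 99 by summit height. Among the members it called 11 lower and 2 higher with lists of equal length, 12 and 2 on log2 area, and 13 and 1 with the trend, and 0 by summit height. Leaving out 1 library gave 0 to 2 lower calls, both of the 2 (at Stat6 and Ifngr2) without cKO replicate 2, where limma called 3182 regions lower and 323 higher genome-wide. Without cKO replicate 1 it called 327 and 44 genome-wide. Gained regions numbered 1 with peaks above the median area and 3 in windows of 50 kb, and lost regions 7 with lists of equal length and 9 in windows of 50 kb. Leaving out 1 library, where fewer lists have to agree, gave 0 to 3 gained and 4 to 10 lost regions. Regions with both cKO percentiles above both WT percentiles numbered 0 of 19 with peaks above the median area. They were 4 of 29 with lists of equal length and 1 of 26 with cover of at least 50%. In gene bodies they were 1 of 17, in windows of 50 kb 4 of 73 and on log2 area 4 of 30. Without 1 library they were 3 to 6 of 30 to 36. Those below numbered 11 of 19 with peaks above the median area and 10 of 17 in gene bodies. In windows of 50 kb they were 48 of 73, and without 1 library 19 to 25 of 30 to 36. Gene bodies and windows of 50 kb draw on the same regions as the genome-wide 35.1% lower and 22.2% higher. With lists of equal length the genome-wide shares were 35.7% and 36.8%. The shares of all regions under the other settings are not given here. With a library left out, fewer percentiles have to be in order, so the non-overlap rule is easier to meet. The cause of the other changes was not tested, apart from the fewer or more regions that each filter or window takes in. These non-overlap counts and their alternatives were added after the data were seen. The median promoter difference stayed between -3.04 and -1.38 points.

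The replicate numbers gave no known pairing. Differences between replicates 2 and 1 in WT and cKO correlated at 0.295 over regions, but with 2 pairs this does not establish one. With the replicate block, 0 regions were gained and 4 lost, and limma called 0. After removal of the block 3 of 30 were higher and 21 lower. The share of all regions after that removal is not given here.

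Small differences changed sign. By summit height they were -2.19 points at Stat4 (past its end), 0.41 at the Ifngr1 promoter, -0.0149 at the Stat3 promoter and 5.06 at Ifnar2 intron 7. With lists of equal length they were 1.02 at Stat4 intron 3 and 0.757 upstream of Ifnar2, and with summed areas 0.0166 at the latter. Without 1 library, differences that changed sign ran from -12.6 to 15.8 points at Stat3 intron 1, -0.268 to 0.356 at the Stat3 promoter, -6.48 to 4.09 at Stat4 intron 3, -0.212 to 1.66 at Stat4 (past its end), -1.59 to 1.56 upstream of Ifnar2, -3.49 to 0.587 at the Jak2 promoter, -9.72 to 3.11 at Jak2 intron 1 and -0.796 to 8.25 upstream of Jak2.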
